A study of Mus musculus with 16 samples.

Results

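The genes described here are 6 direct targets of Wnt/β-catenin signalling (Axin2, Sp5, Cdx1, Cdx2, Znrf3 and Nkd1) and the 4 genes that encode the TCF/LEF transcription factors (Lef1, Tcf7, Tcf7l1 and Tcf7l2). They were chosen by name, with earlier results of these data known. All 10 were found by symbol among the 27179 genes of the count table and had enough counts to be tested. They were followed in mouse embryonic stem (ES) cells at 0, 12, 24 and 40 h after release from naive pluripotency, in 16 RNA libraries that form 8 groups of 2. At 0 h the cells of both arms were in 2i and leukaemia inhibitory factor (LIF). 2i is a pair of inhibitors, here 3 uM CHIR99021, which blocks GSK3, and 1 uM PD0325901, which blocks MEK.

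The arm labelled 2i/LIF was kept in a serum-free base of DMEM/F-12 and Neurobasal with the N-2 and B-27 supplements. The arm labelled serum/LIF+2i, called the serum arm from here on, was kept in knockout DMEM with 10% fetal bovine serum. For the 12, 24 and 40 h groups of both arms, 2i and LIF were removed in serum-free medium. Cells of the 2i/LIF arm stayed in their own base, whereas those of the serum arm moved to a DMEM and Neurobasal base and so lost serum too. CHIR99021, PD0325901 and LIF were removed together, so the part of GSK3 inhibition in any change cannot be told apart from that of the other components. Glutamine at 2 mM was in the media of all groups, and the cells grew on gelatin-coated plates. The labels name no cell line or genotype and do not say whether the 2 replicates of a group came from separate cultures, so p-values measure the spread between these libraries, which may be technical.

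In the canonical Wnt pathway a destruction complex built on AXIN and APC holds β-catenin, which GSK3 phosphorylates and so marks for degradation. A Wnt ligand, or a GSK3 inhibitor in its place, lets β-catenin build up and bind TCF/LEF proteins on DNA. In mouse ES cells, TCF7L1 (also called TCF3) is known mainly as a repressor of naive pluripotency genes that β-catenin relieves, and TCF7 and LEF1 mainly as activators. AXIN2, NKD1 and ZNRF3 are feedback inhibitors made in response to the signal, and SP5, CDX1 and CDX2 are transcription factors whose genes respond to it.

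TCF/LEF proteins bind a short core. The 250 bases before the annotated start were searched on both strands for 4 spellings of it. These were CTTTGAA, the spelling CTTTGAT, the spelling CTTTGTA and the spelling CTTTGTT, and no other motif was searched. RefSeq promoters of build GRCm38.p6 were listed for 8 of the 10 genes, 13 promoters in all, and 3 of the 13 held a match. Of all 32851 promoters listed, 14.8% held one. The windows of Sp5 and Axin2 are printed here because these 2 targets fell to very different residual levels. In each, 5′ to 3′ on the plus strand, capitals mark a match.
Sp5, chr2:70474673-70474922: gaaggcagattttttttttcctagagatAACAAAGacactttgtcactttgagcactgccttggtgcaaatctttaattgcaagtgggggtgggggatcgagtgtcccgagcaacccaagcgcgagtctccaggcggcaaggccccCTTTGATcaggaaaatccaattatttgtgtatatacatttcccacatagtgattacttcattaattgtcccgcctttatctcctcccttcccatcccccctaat
Axin2, chr11:108920099-108920348: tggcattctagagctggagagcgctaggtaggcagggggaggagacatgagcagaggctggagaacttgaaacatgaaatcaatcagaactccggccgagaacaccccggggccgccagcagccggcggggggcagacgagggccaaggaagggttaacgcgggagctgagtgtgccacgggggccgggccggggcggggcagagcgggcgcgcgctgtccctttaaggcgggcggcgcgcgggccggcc
The Sp5 window held 2 matches, 222 and 104 bases before the start, the first of them CTTTGTT on the opposite strand. The Axin2 window, which unlike that of Sp5 lies before an annotated start inside the gene (chr11:108917828-108950783), held none, and its GC content was 69.2% against 46.0% for Sp5. The other 2 promoters with a match lay before starts inside the genes Lef1 and Tcf7l2. A match is a stretch of letters, not a measured binding site.

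Levels are given in CPM, counts scaled to the size of each library with the TMM method so that libraries of different depth can be compared, and differences as log2 fold changes with their standard errors (SE). A gene is said to have risen, fallen or been called where edgeR's quasi-likelihood test, fitted on 14288 genes in all 16 libraries, gave a Benjamini-Hochberg adjusted p under 0.05 (8 residual degrees of freedom). That test also draws on the spread of the other genes. SE is the size of the log2 fold change over the square root of the test's F statistic. The 95% interval of a fitted change uses 8 degrees of freedom, so it can be wider than the test implies. Total counts per library ran from 5931381 to 11142744. Groups whose counts summed to 3 or fewer over both libraries are treated as at the floor, and there a count ratio with a 95% interval, or a bound computed against 3 counts over the group, replaces the fitted fold change. Such intervals and bounds cover counting error only. Since RNA was taken from whole cultures, less RNA per cell and fewer cells that express a gene cannot be told apart.

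Markers of ES cells were present throughout. The summed level of Pou5f1, Sox2, Utf1, Tdgf1 and Zfp42 lay between 1519 and 2702 CPM, with all 5 over the floor in every group. The sum hides larger moves of single markers. Over all libraries Utf1 ran from 19.4 to 476 CPM, Zfp42 from 43.3 to 447 and Sox2 from 137 to 422. Pou5f1 ran from 635 to 953 CPM and Tdgf1 from 293 to 441. Trophoblast markers, relevant because Cdx2 is also a trophectoderm factor, summed to between 1.87 and 8.38 CPM over 6 genes. Tpbpa was at 0 counts in all 16 libraries, Elf5 in 12 and Hand1 in 8. Esx1 had counts in every library (0.581 to 2.88 CPM), and Gata3 and Krt7 reached 5.81 and 5.34 CPM. Primitive streak and mesoderm markers, relevant because Sp5 and the Cdx genes are also expressed in the streak, summed to between 3.01 and 12.7 CPM over 5 genes. Eomes had counts in every library, from 1.63 to 11.8 CPM, whereas Mesp1 was at 0 counts in 11 libraries. The streak factor T was not among these 5. Its levels, which at 0 h were above these sums in both arms, are given with the other reported targets. Fibroblast feeder markers reached 10.5 CPM over 4 genes, and markers of 2-cell-like cells ran from 0.441 to 31.3 CPM over 3 genes. The neural, primitive endoderm and 2-cell-like markers moved with time and are given beside Lef1. Ribosomal RNA took between 0.468% and 1.77% of a library, and leaving it out moved the number of these 10 genes called by at most 1 in every comparison.

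All 6 targets fell within 12 h in both arms. Sp5 and Cdx2 passed the count filter only through their 0 h groups, where they were high, so their fall is not independent of the filter. Of the 10 genes, 9 were called at 12 h in the 2i/LIF arm (1 higher and 8 lower), where the test called 44.7% of all genes (21.0% higher and 23.7% lower). All 10 were called in the serum arm (1 higher and 9 lower), against 51.2% of all genes (25.3% higher and 25.9% lower). The median log2 fold change of the 6 targets at 12 h was -3.94 in the 2i/LIF arm and -3.48 in the serum arm, including fitted values of genes at the floor, against -0.004 and 0.000 over all genes. At 24 h all 10 were called in the 2i/LIF arm (2 higher and 8 lower), against 58.8% of all genes (29.2% higher and 29.6% lower). The serum arm had 9 called (2 higher and 7 lower), against 64.4% (32.4% higher and 32.0% lower). At 40 h 9 were called in the 2i/LIF arm (1 higher and 8 lower), against 68.8% of all genes (34.1% higher and 34.7% lower). The serum arm again had 9 called (2 higher and 7 lower), against 70.5% (35.3% higher and 35.3% lower). From 12 to 24 h 6 of the 10 were called in each arm, against 35.1% of all genes in the 2i/LIF arm and 48.4% in the serum arm. From 24 to 40 h 7 were called in the 2i/LIF arm, against 46.7%, and 5 in the serum arm, against 50.5%. All comparisons with 0 h within an arm share the same 0 h libraries. Because the 10 genes were chosen with earlier results of these data known, the shares of all genes are given for scale and not as a test.

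**Figure D1:**
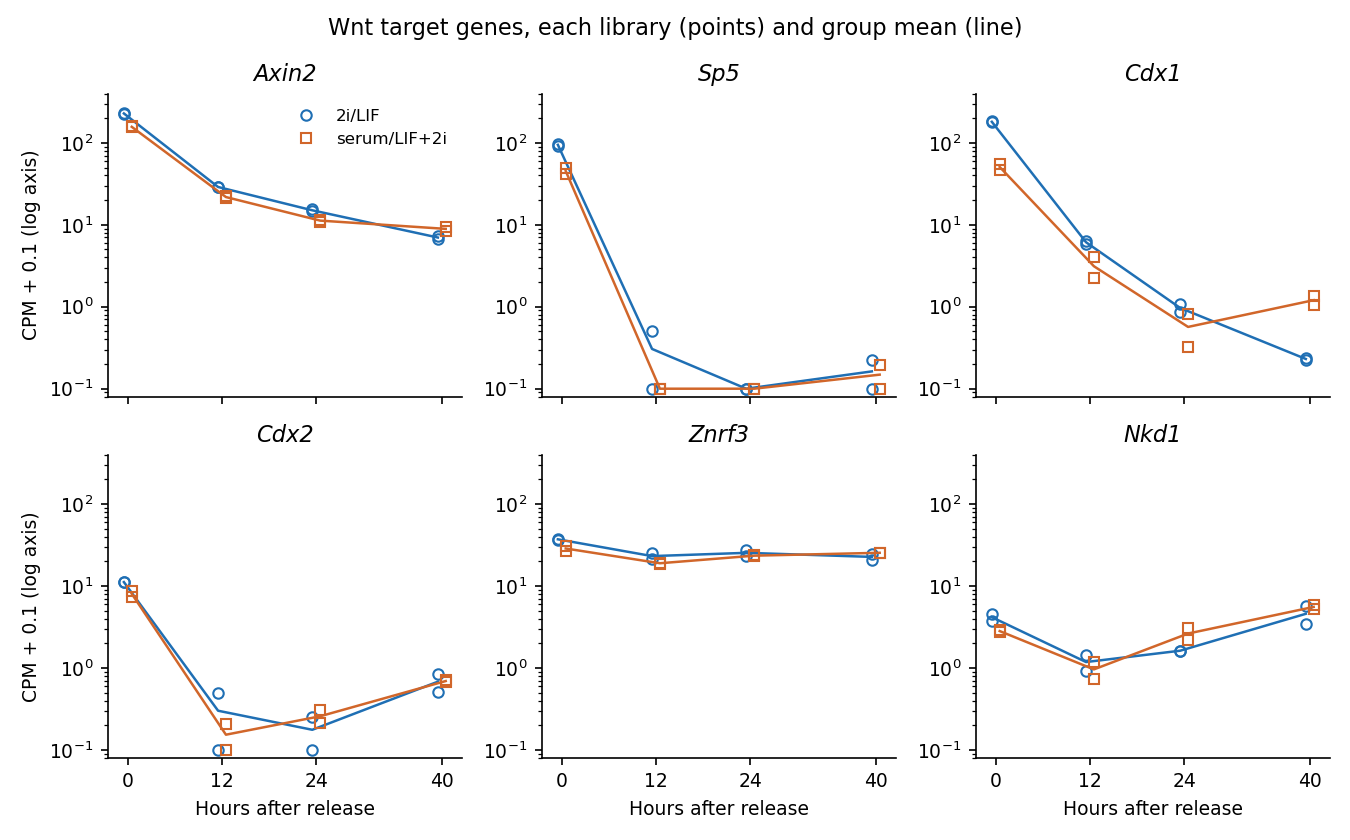
Level of each of the 6 targets, in CPM plus 0.1 on a log axis, against hours after release. Each point is 1 library, and the lines join the group means of the 2 arms. Axin2, Sp5, Cdx1 and Cdx2 drop steeply by 12 h, whereas Znrf3 stays within a narrow band and Nkd1 dips and returns.

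Axin2 (Entrez 12006, chr11:108917828-108950783) encodes a scaffold of the destruction complex and is the most widely used readout of the pathway. In the 2 libraries of each 2i/LIF group it stood at 227 and 229 CPM at 0 h, 29.1 and 28.6 at 12 h, 15.3 and 14.6 at 24 h, and 7.26 and 6.52 at 40 h. The serum arm had 155 and 158 CPM at 0 h, 22.4 and 21.0 at 12 h, 11.5 and 10.8 at 24 h, and 9.22 and 8.42 at 40 h. No 2 time groups of an arm overlapped, and most of the loss came in the first interval. At 12 h a mean of 12.6% of the 0 h level was left in the 2i/LIF arm and 13.9% in the serum arm, and at 40 h 3.02% and 5.63%. The log2 fold change at 12 h was -2.98 (SE 0.071, adjusted p 2.8e-69) in the 2i/LIF arm and -2.86 (SE 0.076, adjusted p 3.9e-64) in the serum arm. Axin2 was then still falling. In the 2i/LIF arm the next intervals gave -0.95 (adjusted p 4.1e-11) and -1.11 (6.1e-09). In the serum arm the step from 12 to 24 h was -0.96 (4.2e-11), and that from 24 to 40 h was -0.33 (adjusted p 0.044), a call lost with DESeq2, under other scalings and filters and when each of the 4 libraries compared was left out in turn. A gene model on the opposite strand, Gm11670, overlaps an exon of Axin2, and whether the counting used strand is not given in the sources used here.

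Sp5 (64406, chr2:70474923-70477726), a zinc finger factor that acts back on Wnt target genes, fell to the floor within 12 h. Its counts in the 2i/LIF arm were 536 and 636 at 0 h, 3 and 0 at 12 h, 0 and 0 at 24 h, and 1 and 0 at 40 h. The serum arm counts were 332 and 283 at 0 h, 0 in each library at 12 and at 24 h, and 0 and 1 at 40 h. Both arms were thus at the floor from 12 h on. Sp5 was 466-fold lower at 12 h in the 2i/LIF arm (95% interval 159 to 2263), with all 3 counts in the first library and at least 236-fold lower without it, and at least 253-fold lower at 12 h in the serum arm. At 24 h it was at least 435-fold lower in the 2i/LIF arm and at least 284-fold lower in the serum arm. At 40 h, with 1 count in each arm, the ratios were 1452-fold (260 to 57390) and 991-fold (177 to 39200) lower, and at least 232-fold and 175-fold lower without the library that held the count. Whether the 2 arms differed below that floor was not detectable at this depth.

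Cdx1 (12590), a homeobox factor of posterior identity, fell in stages. The 2i/LIF libraries had 183 and 178 CPM at 0 h, 6.30 and 5.75 at 12 h, 0.972 and 0.760 at 24 h, and 0.125 and 0.136 at 40 h, the last being 1 count in each library. Levels in the serum arm were 54.7 and 46.7 CPM at 0 h, 3.92 and 2.13 at 12 h, 0.221 and 0.713 at 24 h, and 0.948 and 1.26 at 40 h. The 2i/LIF groups fell at every time without overlap, and the serum arm groups were lowest at 24 h. The log2 fold changes against 0 h in the 2i/LIF arm were -4.90 (SE 0.11) at 12 h and -7.67 (SE 0.16) at 24 h. At 40 h the count ratio was 1383-fold lower (95% interval 382 to 11430). The serum arm gave -4.11 (SE 0.16), -6.68 (SE 0.22) and -5.51 (SE 0.18), all called. The step from 24 to 40 h in the 2i/LIF arm, from 7 and 5 counts to 1 and 1, was called (adjusted p 0.010), a call lost without the first library of 24 h or of 40 h. The same step in the serum arm was 1.17 and not called (adjusted p 0.059). Without the second 24 h library of the serum arm the 24 h change was -7.74.

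Cdx2 (12591, chr5:147300900-147307249), the related factor that also specifies trophectoderm, was lower than Cdx1 from the start. Its counts in the 2i/LIF arm were 64 and 73 at 0 h, 0 and 3 at 12 h, 0 and 1 at 24 h, and 6 and 3 at 40 h. Counts in the serum arm were 59 and 49 at 0 h, 0 and 1 at 12 h, 1 and 2 at 24 h, and 7 and 6 at 40 h. Both arms were at the floor at 12 and 24 h and above it at 40 h. At 12 h Cdx2 was 54.5-fold lower in the 2i/LIF arm (95% interval 18.3 to 267) and 133-fold lower in the serum arm (23.4 to 5310). All of these 12 h counts came from the second library of each arm, and without it the values were bounds, at least 26.9-fold and 19.6-fold lower. At 40 h it still stood at 5.24% of its 0 h level in the 2i/LIF arm (log2 fold change -4.20, adjusted p 2.1e-19) and 7.46% in the serum arm (-3.71, adjusted p 2.0e-17). The step from 24 to 40 h was called in the 2i/LIF arm (adjusted p 0.039), with 1 count against 9, and was not called in the serum arm (adjusted p 0.062). In the 2i/LIF arm the call was lost with DESeq2, with no filter on low genes, and without the first library of 24 h or of 40 h.

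Znrf3 (407821, chr11:5276329-5444847) encodes a membrane ubiquitin ligase that removes Frizzled receptors. It moved little compared with the other targets. Levels in the 2i/LIF arm were 36.4 and 37.7 CPM at 0 h, 21.0 and 25.1 at 12 h, 23.0 and 27.5 at 24 h, and 24.3 and 20.8 at 40 h. Serum arm levels stood at 26.6 and 30.5 CPM at 0 h, 18.5 and 19.2 at 12 h, 23.1 and 23.5 at 24 h, and 25.2 and 25.5 at 40 h. In the 2i/LIF arm the later groups overlapped each other and all lay below 0 h, whereas in the serum arm the level was lowest at 12 h. Against 0 h Znrf3 fell by 0.68, 0.56 and 0.71 on the log2 scale in the 2i/LIF arm (adjusted p 1.2e-07, 9.0e-06 and 1.5e-08). The serum arm fell by 0.60 at 12 h (adjusted p 7.7e-06) and by 0.29 at 24 h (0.017, not called with DESeq2). At 40 h the difference was -0.18 and was not called (adjusted p 0.14).

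Nkd1 (93960, chr8:88521342-88594887) encodes a cytoplasmic antagonist that binds Dishevelled. It had the fewest counts of the targets at 0 h, and 6 to 67 counts a library over all groups. The 2i/LIF arm stood at 4.48 and 3.65 CPM at 0 h, 0.822 and 1.34 at 12 h, 1.53 and 1.52 at 24 h, and 3.38 and 5.57 at 40 h. Libraries of the serum arm had 2.65 and 2.79 CPM at 0 h, 1.08 and 0.639 at 12 h, 2.10 and 2.96 at 24 h, and 5.77 and 5.13 at 40 h. The 40 h libraries of the 2i/LIF arm lay on either side of those of 0 h, and those of the serum arm lay above them. Nkd1 fell at 12 h by 1.88 (SE 0.41, adjusted p 4.4e-05) in the 2i/LIF arm and by 1.68 (SE 0.45, adjusted p 8.3e-04) in the serum arm. It then rose from 24 to 40 h by 1.53 (adjusted p 1.9e-04) and 1.10 (2.5e-04). At 40 h it was above the 0 h level in the serum arm, with a log2 fold change of 1.00 (adjusted p 0.0012), and did not differ detectably in the 2i/LIF arm (0.14, adjusted p 0.70, 95% interval -0.55 to 0.82).

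The 4 TCF/LEF genes took different courses. Tcf7l1 rose in both arms while the targets fell, Tcf7 fell and came back, Lef1 dipped and then rose several-fold, and Tcf7l2 drifted down. All 4 were called in both arms at 24 and at 40 h. Of all genes, 58.8% were called at 24 h in the 2i/LIF arm and 64.4% in the serum arm. At 40 h these shares were 68.8% and 70.5%.

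**Figure D2:**
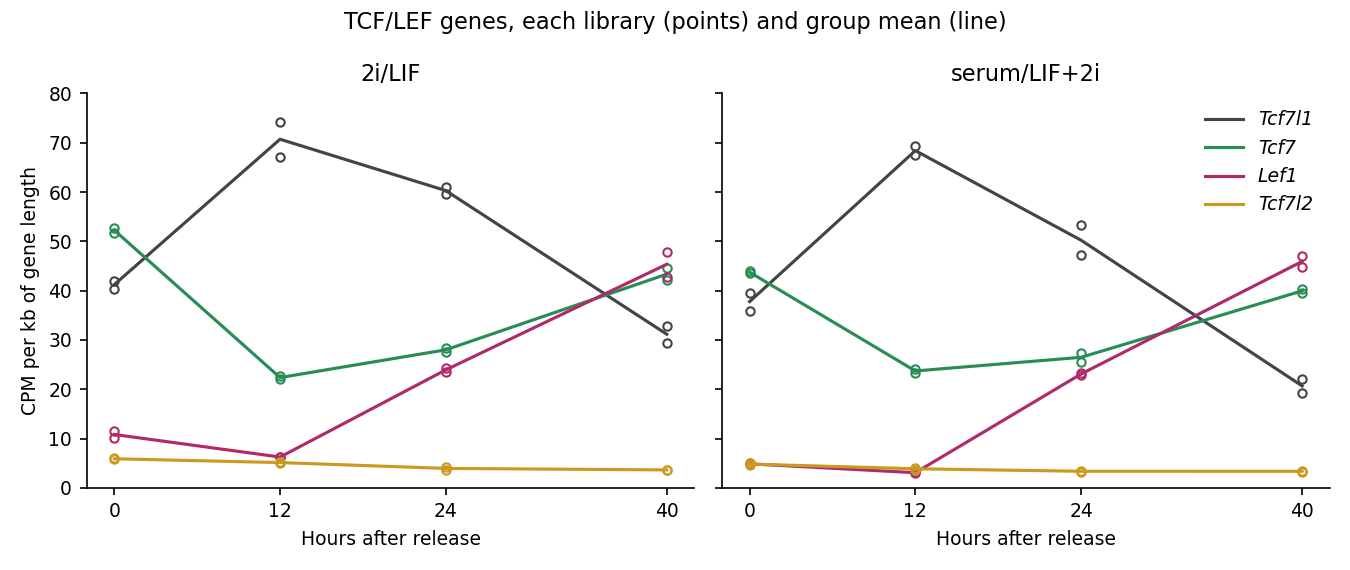
Level of Lef1, Tcf7, Tcf7l1 and Tcf7l2 in CPM per kb of gene length against hours after release. Each point is 1 library, and the lines join the group means of the 2 arms. Tcf7l1 peaks at 12 h, where Tcf7 and Lef1 are lowest. The mean of Lef1 at 40 h is 45.4 CPM per kb in the 2i/LIF arm and 45.9 in the serum arm.

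Tcf7l1 (21415, chr6:72626371-72789045) stood in the 2i/LIF arm at 117 and 113 CPM at 0 h, 187 and 207 at 12 h, 170 and 166 at 24 h, and 91.4 and 82.1 at 40 h. Its serum arm levels were 100 and 110 CPM at 0 h, 188 and 193 at 12 h, 148 and 131 at 24 h, and 61.4 and 53.8 at 40 h. No 2 time groups of an arm overlapped, and the 40 h groups were the lowest of each arm. The rise at 12 h was 0.78 (SE 0.059, adjusted p 6.9e-20) in the 2i/LIF arm and 0.86 (SE 0.058, adjusted p 1.8e-22) in the serum arm. At 40 h Tcf7l1 was below its 0 h level, at -0.40 on the log2 scale (SE 0.066, adjusted p 1.7e-07) in the 2i/LIF arm and -0.87 in the serum arm (SE 0.067, adjusted p 6.0e-20). An exon of Tcf7l1 overlaps Gm15401 on the opposite strand, which had 2 to 14 counts a library.

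Tcf7 (21414, chr11:52246527-52283383) stood in the 2i/LIF arm at 118 and 116 CPM at 0 h, 49.3 and 50.8 at 12 h, 61.6 and 63.7 at 24 h, and 94.3 and 99.7 at 40 h. The 2 serum arm libraries of each time had 97.6 and 98.3 CPM at 0 h, 52.2 and 54.0 at 12 h, 57.3 and 61.2 at 24 h, and 90.5 and 88.4 at 40 h. It was lowest at 12 h in every library of that time and had nearly returned at 40 h. Its fall at 12 h was -1.22 (SE 0.069, adjusted p 3.3e-33) in the 2i/LIF arm and -0.88 (SE 0.067, adjusted p 2.9e-23) in the serum arm. At 40 h it was -0.27 (adjusted p 4.2e-05) in the 2i/LIF arm. The serum arm value was -0.13 at 40 h (adjusted p 0.042), a call lost with DESeq2, under other scalings and filters and when each of the 4 libraries compared was left out in turn.

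Lef1 (16842, chr3:131110297-131224357) is both a TCF/LEF factor and, in many tissues, a Wnt target. The 2i/LIF libraries had 25.0 and 28.3 CPM at 0 h, 15.3 and 15.4 at 12 h, 58.0 and 59.7 at 24 h, and 118 and 105 at 40 h. For the serum arm the levels were 11.8 and 12.2 CPM at 0 h, 7.43 and 7.66 at 12 h, 57.5 and 56.1 at 24 h, and 116 and 110 at 40 h. The arms did not overlap at 0 and 12 h and came to nearly the same level at 24 and 40 h. Lef1 fell at 12 h by 0.80 (SE 0.13, adjusted p 3.7e-08) and 0.66 (SE 0.17, adjusted p 5.6e-04). It then rose from 12 to 24 h by 1.94 (SE 0.10) in the 2i/LIF arm and 2.91 (SE 0.11) in the serum arm. By 40 h it was above 0 h by 2.06 (SE 0.084, adjusted p 2.3e-46) and 3.24 (SE 0.094, adjusted p 5.3e-61). An exon overlaps Gm43352 on the opposite strand.

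Markers of other cell types also differed between 0 and 40 h, and no test was run on these sums. The 3 neural markers Sox1, Pax6 and Neurog2 summed in the 2i/LIF arm to 1.03 and 0.760 CPM at 0 h, 16.03 and 17.65 at 12 h, 22.9 and 20.8 at 24 h, and 26.7 and 31.9 at 40 h. Sums in the serum arm were 3.97 and 4.85 CPM at 0 h, 20.5 and 20.0 at 12 h, 24.2 and 26.4 at 24 h, and 55.5 and 50.5 at 40 h. Sox1 reached 49.9 CPM, and Neurog2 was at 0 counts in 13 of 16 libraries. In both arms the neural sum grew from 0 to 12 h while Lef1 fell, and from 12 to 40 h both grew. The 5 primitive endoderm markers summed to 3.62 and 4.25 CPM at 0 h and 10.3 and 12.0 at 40 h in the 2i/LIF arm, and to 5.29 and 6.17 at 0 h and 15.5 and 14.7 at 40 h in the serum arm. The 3 markers of 2-cell-like cells, Zscan4c, Zscan4d and Zfp352, summed to 4.83 and 2.58 CPM at 0 h and to 13.2 and 19.8 at 40 h in the 2i/LIF arm. Their serum arm sums were 0.441 CPM in each 0 h library and 31.3 and 30.0 at 40 h. The part of any of these cell types, feeders included, in the results was not tested.

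Tcf7l2 (21416, chr19:55741797-55933659), the factor best known from gut epithelium, stood in the 2i/LIF arm at 26.2 and 27.5 CPM at 0 h, 23.0 and 23.7 at 12 h, 16.2 and 19.6 at 24 h, and 16.4 and 16.7 at 40 h. The serum arm stood at 21.2 and 22.8 CPM at 0 h, 18.4 and 16.8 at 12 h, 15.7 and 14.9 at 24 h, and 15.9 and 14.7 at 40 h. Its 24 and 40 h libraries overlapped in both arms and lay below those of 0 h. It was lower by 40 h, with a log2 fold change of -0.70 (adjusted p 7.1e-07) in the 2i/LIF arm and -0.52 (adjusted p 1.1e-04) in the serum arm. At 12 h the change was not called in the 2i/LIF arm (-0.20, adjusted p 0.17). The serum arm change was -0.33 (0.025), a call lost with DESeq2.

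Dividing CPM by gene length allows levels to be compared between the genes. At 0 h in the 2i/LIF arm the order by mean CPM per kb was Cdx1 at 103 ± 2.21 (SD, n = 2), Axin2 at 53.6 ± 0.398, Tcf7 at 52.3 ± 0.680, Sp5 at 45.1 ± 1.43 and Tcf7l1 at 41.2 ± 1.13. Lef1 followed at 10.8 ± 0.938, then Tcf7l2 and Znrf3, which overlapped, with Znrf3 at 5.87 ± 0.147, Cdx2 at 5.16 and Nkd1 at 0.911. The other neighbours in this order did not overlap. At 0 h in the serum arm Tcf7 was highest at 43.8, followed by Tcf7l1 at 37.8 ± 2.60 and Axin2 at 36.8 ± 0.478, which overlapped, and by Cdx1 at 29.0 ± 3.21.

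Within the TCF/LEF family Tcf7 and Tcf7l1 made up most of the summed level at 0 h, Tcf7l1 at 12 h, and Lef1 and Tcf7 at 40 h. The sum of the 4 genes was 110 CPM per kb at 0 h and 124 at 40 h in the 2i/LIF arm, and 91.2 and 109.9 in the serum arm. At 0 h Tcf7 held 47.4% of the sum in the 2i/LIF arm and Tcf7l1 37.4%. At 12 h Tcf7l1 held 67.7% and Tcf7 21.4%, and in the serum arm 69.1% and 23.9%. At 40 h in the 2i/LIF arm Lef1 held 36.7% and Tcf7 35.1%, ranges that overlapped, and Tcf7l1 25.2%. At 40 h in the serum arm Lef1 held 41.8%, Tcf7 36.4% and Tcf7l1 18.8%, without overlap. Lef1 had held 9.82% at 0 h in the 2i/LIF arm and 5.34% in the serum arm. Tcf7l2 held between 2.95% and 5.35% in all groups. Shares of RNA per length are not shares of protein. Without division by length Tcf7 and Tcf7l1 took 41.0% and 40.2% at 0 h in the 2i/LIF arm, and in the serum arm Tcf7l1 came first with 44.3%.

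**Figure D3:**
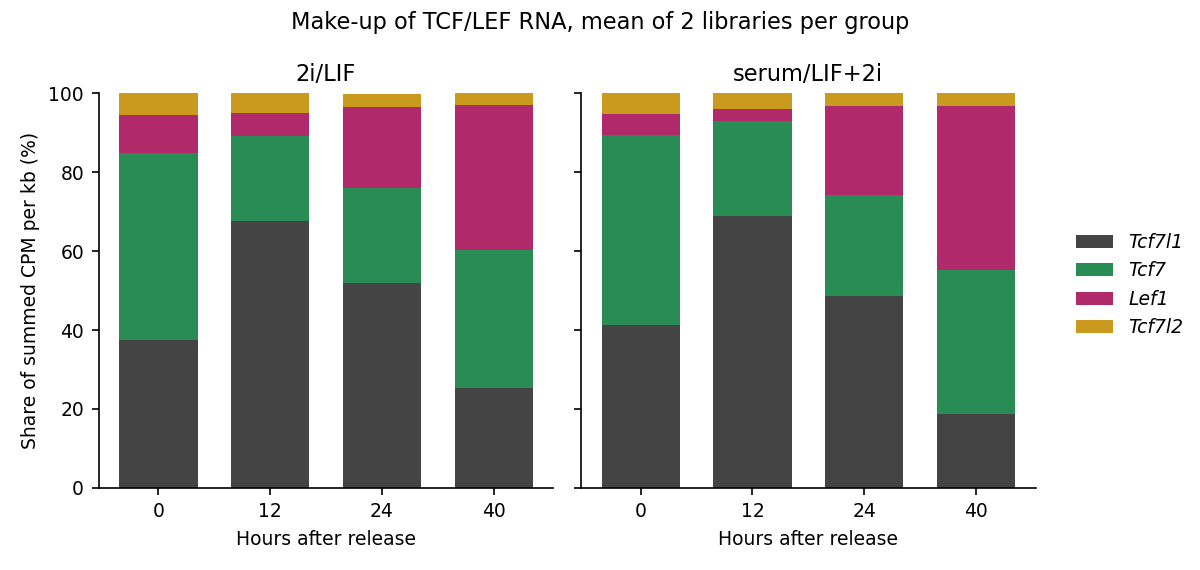
Share of each TCF/LEF gene in their summed CPM per kb, in percent, as stacked bars of group means for each arm and time. Tcf7l1 takes 67.7% and 69.1% of the sum at 12 h in the 2 arms, and Lef1 grows from under 10% at 0 h to the largest share at 40 h, where in the 2i/LIF arm its range overlaps that of Tcf7.

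Starting levels differed between the media at 0 h, when 2i and LIF were present in both. Of the 10 genes, 6 were called between the arms at 0 h, all of them lower in the serum arm, against 33.0% of all genes called and 18.4% called lower. Cdx1 differed most, at -1.83 (SE 0.077, adjusted p 2.9e-43). Lef1 differed by -1.16 (SE 0.14, adjusted p 2.8e-12), and Sp5 differed by -1.07 (SE 0.091, adjusted p 7.6e-19). Axin2 differed by -0.54 (adjusted p 8.1e-16), Znrf3 by -0.37 (0.0044) and Tcf7 by -0.26 (4.3e-04). The call for Znrf3 was lost without the second 2i/LIF or the first serum arm library of 0 h. Cdx2 (-0.48, adjusted p 0.093), Nkd1 (-0.57, 0.20), Tcf7l2 (-0.29, 0.059) and Tcf7l1 (-0.12, 0.14) were not called. Without the second 0 h library of the serum arm, Tcf7l1 was called at -0.20.

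At later times fewer genes differed between the arms. At 12 h 4 were called, all lower in the serum arm, against 30.3% of all genes called and 15.5% called lower. They were Lef1 (-1.02, adjusted p 5.2e-08), Cdx1 (-1.04, 7.3e-04), Axin2 (-0.41, 0.0010) and Tcf7l2 (-0.41, 0.0055), of which Cdx1 and Tcf7l2 were lost without the second 12 h library of the serum arm. At 24 h Axin2 (-0.42, adjusted p 0.014) and Tcf7l1 (-0.27, 7.7e-05) were called, both lower in the serum arm, against 31.1% of all genes called and 17.0% called lower, and Axin2 was lost without the first 2i/LIF or the second serum arm library of 24 h. At 40 h the 2 called genes were Tcf7l1, lower in the serum arm (-0.59, SE 0.068, adjusted p 2.9e-11), and Cdx1, higher there, against 27.3% of all genes. For Cdx1 this rests on 24 counts in the serum arm against 2 in the 2i/LIF arm, a ratio after scaling of 8.39 (95% interval 2.08 to 73.3). Lef1 did not differ detectably at 40 h (0.02, SE 0.058, adjusted p 0.86).

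Whether the response to release differed between the arms was tested as an interaction, the change from 0 h in the serum arm minus that in the 2i/LIF arm. At 12 h only Tcf7 of the 10 genes was called (0.34, SE 0.098, adjusted p 0.012), against 9.2% of all genes. That call was lost with DESeq2 and without the first 2i/LIF or the second serum arm library of 12 h. At 24 h only Lef1 was called (1.11, SE 0.16, adjusted p 6.6e-09), against 20.8% of all genes.
At 40 h 5 were called, 4 positive and 1 negative, against 27.6% of all genes (14.8% positive and 12.8% negative). Lef1 rose more in the serum arm (1.17, SE 0.15, adjusted p 8.7e-11), from a lower start to a level not called different at 40 h. Axin2 fell less there (0.90, SE 0.18, adjusted p 2.2e-05). Znrf3, which was called lower at 40 h in the 2i/LIF arm and not in the serum arm, gave 0.54 (SE 0.15, adjusted p 0.0046). The Znrf3 call was lost with DESeq2 and without the second 40 h library of the 2i/LIF arm. Cdx1 also fell less (4.76, adjusted p 2.7e-08), with a size that depends on the prior count because 2i/LIF is at the floor at 40 h. Tcf7l1 fell more in the serum arm (-0.46, SE 0.094, adjusted p 6.2e-05). The same 0 h libraries enter these interactions and the comparisons between the arms.

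**Figure D4:**
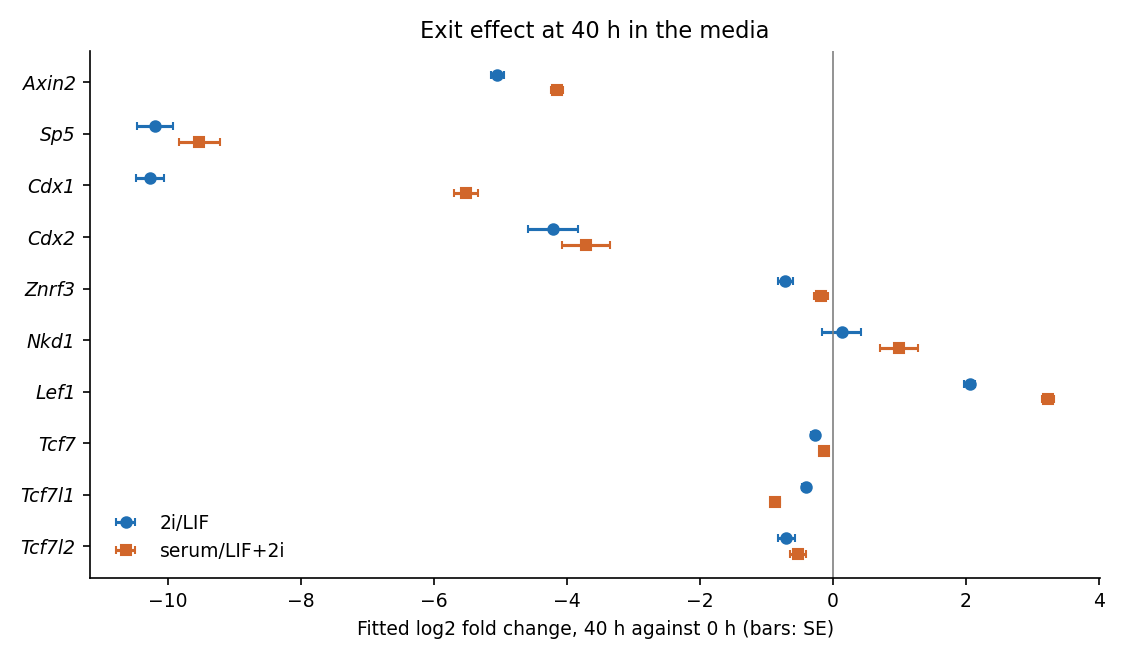
Log2 fold change from 0 h to 40 h for each of the 10 genes in the 2 arms, with SE as bars. Sp5 in both arms and Cdx1 in the 2i/LIF arm are at the floor at 40 h, so their fitted values depend on the prior count. Lef1 lies furthest above 0 in both arms, and Nkd1 was called above 0 h in the serum arm.

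The rest of the pathway showed no single direction. Of 95 other Wnt pathway genes, listed by role with earlier results of these data known, 72 were tested. At 40 h 23 of these rose and 33 fell in the 2i/LIF arm, and 29 rose and 30 fell in the serum arm. Of all genes, 34.1% rose and 34.7% fell at 40 h in the 2i/LIF arm, and 35.3% rose and 35.3% fell in the serum arm. The median log2 fold changes of the 72 genes at 40 h were -0.28 and -0.06. For each role, values are given for up to 3 genes that were called and changed most at 40 h in the 2i/LIF arm.

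Of the ligands, 7 of 19 were tested, and 2 rose and 2 fell at 40 h in the 2i/LIF arm, and 3 and 2 in the serum arm. Wnt8a, a ligand of the early streak, went from a mean of 0.248 CPM at 0 h to 15.8 at 40 h in the 2i/LIF arm and from 0.147 to 33.0 in the serum arm, with 0 h near the floor. Wnt5b, a mainly non-canonical ligand, went from 10.5 to 1.98 CPM in the 2i/LIF arm (log2 fold change -2.42) and fell by 2.02 on the log2 scale in the serum arm. Wnt9a rose to 2.71 and 2.79 CPM at 40 h from 0.152 and 0.367 CPM. All 15 receptors and co-receptors were tested, and 7 rose and 3 fell in the 2i/LIF arm, 10 and 3 in the serum arm, against 34.1% and 35.3% of all genes that rose in the 2 arms. The Frizzled receptor gene Fzd10 went from 168 to 3.94 CPM in the 2i/LIF arm (-5.40) and from 76.2 to 5.96 in the serum arm (-3.66). Fzd7 rose from 36.1 to 269 CPM (2.90) and from 40.8 to 177 (2.12), and Fzd2 rose by 2.90 and 3.13 on the log2 scale. Falling Fzd10 and rising Fzd7 and Fzd2 were thus seen in both arms.

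Of 10 tested secreted and membrane modulators, 4 rose and 4 fell at 40 h in the 2i/LIF arm, and 4 and 3 in the serum arm. Sfrp1, a secreted inhibitor that binds Wnts, went from 336 to 21.3 CPM in the 2i/LIF arm (-3.98) and changed by -4.16 in the serum arm, while its relative Sfrp2 rose by 3.12 and 3.44. Porcn, which acylates Wnts for secretion, had mean levels of 26.5, 63.3, 29.9 and 4.06 CPM at 0, 12, 24 and 40 h in the 2i/LIF arm and of 5.95, 67.1, 29.7 and 4.34 CPM in the serum arm. It thus peaked at 12 h in both arms. Of 11 tested genes of the destruction complex and cytoplasmic relay, 2 rose and 8 fell in the 2i/LIF arm and 2 and 7 in the serum arm, against 34.7% and 35.3% of all genes that fell in the 2 arms. Gsk3b, which encodes a target of CHIR99021, went from 130 to 82.3 CPM in the 2i/LIF arm (-0.66) and changed by -0.38 in the serum arm. Of the Dishevelled genes, Dvl1 rose by 0.70 and 0.48, and Dvl3 changed by -0.92 and -0.68. Of 12 nuclear co-factors, 5 rose and 5 fell in the 2i/LIF arm and 6 and 4 in the serum arm. Tle5, a short member of the Groucho family of co-repressors, went from 214 to 52.0 CPM in the 2i/LIF arm (-2.04) and changed by -2.09 in the serum arm. Ctbp2, a co-repressor, rose by 0.76 and 0.63, and Ctnnbip1, an inhibitor of the β-catenin and TCF contact, by 0.88 and 0.62.

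Of 12 other reported targets, 3 rose and 6 fell at 40 h in the 2i/LIF arm, and 4 and 6 in the serum arm, against 34.7% and 35.3% of all genes that fell in the 2 arms. T, the streak factor brachyury, had mean levels of 28.0, 0.675, 0.367 and 0.381 CPM over the 4 times in the 2i/LIF arm and 16.1, 1.06, 0.213 and 0.188 CPM in the serum arm, most of the drop coming by 12 h. Notum, a secreted enzyme that inactivates Wnts, dropped later: its mean levels were 167, 146, 96.6 and 6.24 CPM in the 2i/LIF arm and 93.9, 82.5, 39.3 and 2.37 CPM in the serum arm. Myc went the other way, from 8.82 CPM at 0 h to 58.0 at 12 h and 57.2 at 40 h in the 2i/LIF arm, and from 6.24 to 66.2 and 100.1 in the serum arm. All 5 genes listed as repressed by Tcf7l1 were called lower at 12 h and at 40 h in both arms, against 23.7% and 25.9% of all genes at 12 h in the 2i/LIF and serum arms, and 34.7% and 35.3% at 40 h. These 5 are naive pluripotency factors in cells released from naive pluripotency, and they were listed with earlier results known. Their count therefore cannot separate a part of Tcf7l1 from release itself. Among them Tfcp2l1 had mean levels of 2182, 450, 143 and 22.1 CPM in the 2i/LIF arm. At 40 h Esrrb changed by -4.61 and -5.87 and Tbx3 by -7.03 and -5.69. Tcf7l1 itself was above its 0 h level at 12 and 24 h and below it at 40 h in both arms. Its part in the fall of these genes was not tested.

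Across the 16 libraries, the genes most like Axin2 among 10761 searched, by Pearson r of log2 levels, were Kit (0.996), Napepld (0.996) and Bcl3 (0.995). Kit, a receptor tyrosine kinase gene, went in the 2i/LIF arm from 447 CPM in each 0 h library to 44.2 and 39.5 at 40 h. Those most like Tcf7l1 were Nr0b1 (0.986), Septin1 (0.977) and Ddx58 (0.974). Nr0b1, a nuclear receptor of naive cells, had 120 and 117 CPM at 0 h, 438 and 442 at 12 h, and 28.1 and 24.6 at 40 h in the 2i/LIF arm. Among the 10 genes themselves Axin2 and Cdx1 had r = 0.979, and Nkd1 and Tcf7l1 had r = -0.894. Between targets and factors, Tcf7l2 had r = 0.859 with Axin2 and 0.863 with Cdx1, and Tcf7 had r = 0.834 with Nkd1 and 0.827 with Cdx2. These values describe 16 points that fall into 8 groups, with the same times in both arms. The libraries differed in depth.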

How the data were processed

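Poly(A) RNA of 16 mouse ES cell libraries was measured. Per the submitters' processing notes, fastp, STAR and featureCounts were used with build mm10, with versions, annotation and strand setting not given in the sources used here. The authors deposited whole-number counts per gene, not normalized, in 1 table of 27179 genes with Entrez identifiers, symbols and lengths, per the file headers. Of these, 1049 had no symbol, and 0 columns of values were set aside. Group and replicate came from the sample titles. The labels' protocol gives 24 and 40 h for serum cells, while titles also give 12 h, and the titles were followed.

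Genes were filtered with filterByExpr (minimum count 10, minimum total 15), scaled by TMM and fitted in edgeR 4.0.16 (R 4.3.3) with a term per group, and 17 comparisons were tested (two-sided, Benjamini-Hochberg over 14288 genes). The biological coefficient of variation was 3.19%. On simulated counts of 14288 genes with 100 genes changed at each size, the test for 2i/LIF, 40 h against 0 h, recovered 82% of those changed by 1 on the log2 scale and 91% of those changed by 2, with 16 false calls. The simulation changed far fewer genes than the 9837 called in that comparison of the data, and in 1 group only. It therefore does not measure recovery or false calls in the data themselves. Levels per kb used the deposited gene lengths. Gene positions and promoters were taken from RefSeq (GRCm38.p6) and exon overlaps from GENCODE vM21. Alternatives were DESeq2 1.42.0, its size factors in edgeR, scaling by library size only, no filter, a mean of at least 5 CPM, no ribosomal RNA genes, a replicate block, only the groups compared, and each library left out. Figures and derived tables used Python 3.11.15, pandas 2.3.3, scipy 1.17.1 and matplotlib 3.10.9.

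Named genes were the 10 chosen genes and, per role list, up to 3 genes called in 2i/LIF at 40 h with the largest absolute change and a mean of at least 5 CPM (ligands 1 CPM). The genes, lists and tests were chosen with earlier results of these data known.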

Additional observations from a re-analysis of the deposited data

Results flagged for a closer look

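The response to release differed between the arms in 7 tested cases, each an interaction on the log2 scale (serum/LIF+2i minus 2i/LIF, edgeR's quasi-likelihood test, adjusted p under 0.05). At 12 h it was 0.34 for Tcf7, the only 1 of the 10 genes called, against 9.2% of all genes. Tcf7 fell less in the serum arm, and its call was lost with DESeq2. At 24 h the interaction was 1.11 for Lef1, again the only 1 of the 10 called, against 20.8% of all genes. At 40 h 5 of the 10 were called, against 27.6% of all genes. The interaction was 1.17 for Lef1, which rose more in the serum arm, 0.90 for Axin2 and 4.76 for Cdx1, which fell less. It was 0.54 for Znrf3, which was not called lower in the serum arm at 40 h, and -0.46 for Tcf7l1, which fell more. The Znrf3 interaction call was lost with DESeq2. For Lef1, Axin2, Znrf3, Cdx1 and Tcf7 the 0 h level was also lower in the serum arm, and for Tcf7l1 the arms were not called different at 0 h. The size of the Cdx1 value depends on the prior count, since 2i/LIF was at 1 count in each library at 40 h.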

How the results depend on the processing

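Of 113 single values tested under alternatives, 2678 alternative values were computed: 2617 kept their direction and side of the threshold, 56 lost the call, 2 gained it and 3 changed sign. The sign changes were all in Nkd1, in values that were not called: without the second 2i/LIF library of 0 h or of 40 h its 40 h change became -0.01 or -0.26, and without the first serum/LIF+2i library of 24 h its 24 h change there became 0.12. Over all single libraries left out, the 2 changes ranged from -0.26 to 0.46 and from -0.37 to 0.12. The cause was not tested. The count of the 10 genes called went from 5 to 3 for serum/LIF+2i, 40 against 24 h, with a mean of at least 5 CPM, where Nkd1 was not tested and Axin2 lost its call. It went from 2 to 1 between the arms at 40 h with only the 2 groups compared, and from 1 to 0 for the 12 h interaction with DESeq2, where 2 genes had an unadjusted p under 0.05, as in edgeR. Leaving out single libraries gave 2 to 5 called between the arms at 12 h (4 with all libraries), 1 to 2 at 24 h, 0 to 2 for the 12 h interaction and 1 to 2 for that at 24 h. Over all genes DESeq2 called 3097, 2638, 2688 and 1982 between the arms at 0, 12, 24 and 40 h against 4710, 4334, 4439 and 3897 in edgeR, and 536, 1720 and 2377 interactions against 1315, 2966 and 3940.

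No shared effect of replicate number was seen: correlations of replicate differences lay between -0.023 and 0.0331 over 28 pairs of groups. Whether libraries of the same number were made together cannot be read from these values. With the replicate block, 7 genes instead of 6 were called in the serum arm, 24 against 12 h, and the count was the same in the other 16 comparisons. With 2 libraries a group, and counts of 3 or fewer for Sp5, Cdx2 and Cdx1 after release, differences between the arms below that floor were not detectable.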
